A study of Homo sapiens with 10 samples.

Results

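The MYC, MAX and MXD network is a set of 10 genes, MYC, MYCN, MYCL, MAX, MXD1, MXI1, MXD3, MXD4, MNT and MLX, chosen by symbol among the rows marked protein-coding. All 10 were found, among 19975 protein-coding genes and 60603 genes in all. The RNA came from NB4 cells, a line derived from acute promyelocytic leukemia, in 2 mRNA-seq experiments with 10 libraries. In the GSE1 knockdown experiment, cells carried pLKO.1 puro, a lentiviral vector, either empty (EV) or with the short hairpin shA1 or shB2 against GSE1, a chromatin protein that binds the histone demethylase LSD1, and RNA was taken 48 h after transduction. In the MC2580 experiment, cells were given 2 µM MC2580, an LSD1 inhibitor, or its vehicle DMSO for 24 h. Each group had 2 replicates of this single cell line.

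For each gene the deposited tables hold a base mean, the average over the libraries of an experiment of read counts divided by DESeq2 size factors, here 6 libraries (EV, shA1 and shB2) in the knockdown experiment and 4 (DMSO and MC2580) in the MC2580 experiment. Controls and treated cells are thus pooled in every value below, no value has an error, and no effect of a hairpin or of MC2580 on any member was tested. The fold changes and p-values beside the base means are the authors' own comparisons and were not used. Base means summed to 40543130 and 41201112 over all genes, and the depth of single libraries was not given. As the targeted gene could not be followed per group either, the labels were not checked against it. GSE1 had a base mean of 2963 in the knockdown experiment and 4441 in the MC2580 experiment.

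MYC, MYCN and MYCL are transcription factors that bind DNA as heterodimers with MAX and drive growth and biosynthesis genes. The MXD proteins (MXD1, MXI1, MXD3, MXD4) and MNT also pair with MAX and bind the same E-box, but recruit SIN3 and histone deacetylases and repress. MLX is a MAX-like protein that pairs with MXD1, MXD4, MNT and the Mondo proteins MLXIP and MLXIPL. In myeloid cells MYC is known to be high in dividing progenitors, whereas MXD1 is known to accompany their differentiation.

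The E-box read by these dimers, CACGTG, which is the same on both strands, was searched in RefSeq promoters of GRCh38.p14, each running from 250 bases before to 50 bases after a gene start. The table had 12 promoters for 9 of the members, and none for MYC. The motif stood in 3 of the 12, those of MXD4, MNT and MLX, and in 7.26% of all 35116 promoters. The 3 windows are shown because they carry, in genes of the network itself, the letters that its proteins bind. Each is written 5′ to 3′ on the strand of the gene, with the E-box in capitals.
MXD4: gccgggccacCACGTGctgttgctaa
MNT: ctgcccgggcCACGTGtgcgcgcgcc
MLX: gggcgcgggtCACGTGggcacgccac
The window of MXD4 lies at chr4:2262332-2262357 on the minus strand and that of MNT at chr17:2401238-2401263 on the minus strand. That of MLX lies at chr17:42567040-42567065 on the plus strand. Counted from the RefSeq start of each promoter, the E-box begins 238 bases upstream for MXD4, 193 for MNT and 50 for MLX. Counted from the GENCODE gene start, the distance is again 238 bases for MXD4 but 149 for MNT and 22 for MLX, since the annotated starts of these genes differ. Binding was not measured in these files, and a match is a description of the letters only.

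To compare genes with each other, the base mean was divided by the summed length of the exons of the gene (GENCODE release 44) and scaled so that all genes of a table add up to 1000000, so that it is given in parts per 1000000 (ppm). This length-scaled level is used for every comparison between genes.

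MYC was by far the most abundant member in both experiments. Its base mean was 22618 in the knockdown experiment and 35386 in the MC2580 experiment. Its length-scaled level was 341 and 482 ppm, which put it at rank 388 of 12609 and rank 269 of 12583 protein-coding genes whose base mean was 10 or more. MYC (ENSG00000136997.19) lies on chromosome 8 of GRCh38, from 127735434 to 127742951 on the plus strand.
The other MYC genes contributed little RNA. MYCL, first known from lung cancer, had a base mean of 61.2 in the knockdown experiment and 38.1 in the MC2580 experiment, or 1.13 and 0.638 ppm after length scaling. MYCN, the neuroblastoma paralog, had base means of 0.231 and 0.832. Summed over the libraries, these equal 1.39 and 3.33 normalized counts. A ratio between the experiments was formed only for genes above 3 counts in both, so none was formed for MYCN. MYC therefore made up 99.7% of the summed level of the 3 MYC genes in the knockdown experiment and 99.9% in the MC2580 experiment.

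MAX, the shared partner, came second. Its base mean was 5608 in the knockdown experiment and 7292 in the MC2580 experiment, and its length-scaled level 82.5 and 97.0 ppm. MAX (ENSG00000125952.19) spans chromosome 14 from 65006174 to 65102695 on the minus strand. MLX came next, with base means of 3014 and 2712 and length-scaled levels of 65.2 and 53.0 ppm.
With lengths summed over all exons, MXD4 was the highest of the repressors, with base means of 3020 and 3052 and length-scaled levels of 40.4 and 36.9 ppm. It supplied 37.7% of the summed level of the MXD genes and MNT in the knockdown experiment and 38.1% in the MC2580 experiment. With the length of the MANE Select transcript, the representative transcript of each gene, MXD3 took its place, at 52.8 ppm against 45.4 for MXD4 in the knockdown experiment and 64.4 against 41.7 in the MC2580 experiment. MXD1 had base means of 1493 and 963, or 21.6 and 12.6 ppm after length scaling. MXD3, a member associated with dividing cells, had base means of 967 and 1297, or 18.7 and 22.8 ppm. MXI1, also called MXD2, was nearly level, at 1054 and 1074 in base mean and at 16.4 and 15.1 ppm. MNT, the widely expressed antagonist of MYC, had base means of 951 and 991 and length-scaled levels of 10.1 and 9.47 ppm, the lowest of the repressors with these lengths. In the MC2580 experiment MXD1 fell below MNT with the longest transcript (10.3 against 12.1 ppm), with the MANE Select transcript (9.19 against 10.7) and without division by length (23.4 against 24.0).
With lengths summed over all exons, MYC, MAX, MLX and MXD4 held the same 4 top places in both experiments, and MNT, MYCL and MYCN the lowest 3. Of this order, MYC and MAX at the top and MYCL and MYCN at the bottom held with each of the 4 lengths tried. MXD4 passed MLX without division by length, and MXD3 passed MLX in the MC2580 experiment with MANE Select transcripts. MXD1, MXD3 and MXI1 changed places between the experiments with exon lengths. In the knockdown experiment these 3 genes followed each other by factors of 1.15 and 1.14 only. Without a spread over libraries, it cannot be said which neighbors in this order differ.

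**Figure D1:**
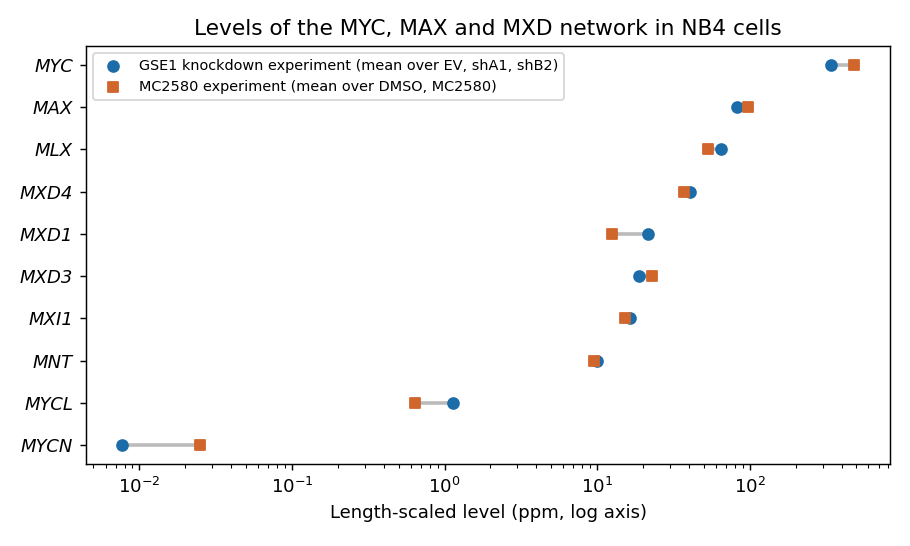
Length-scaled level in ppm (log axis) of the 10 members, one row each. Circles show the mean over the 6 libraries of the knockdown experiment and squares the mean over the 4 libraries of the MC2580 experiment, with no error since no library values were used. MYC stands at 341 and 482 ppm, MAX at 82.5 and 97.0, the 5 repressors between 9.47 and 40.4, and MYCL and MYCN far below them.

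MAX is the partner shared by the MYC and MXD proteins and MNT. Each member was therefore also expressed relative to MAX within a table, where the scaling of the table drops out. MYC RNA was 4.13 times that of MAX in the knockdown experiment and 4.97 times in the MC2580 experiment. MYC was the only member above MAX. MLX had 0.790 and 0.547 of the MAX level, MXD4 0.490 and 0.381, MXD1 0.262 and 0.130, MXD3 0.227 and 0.235, MXI1 0.199 and 0.156, and MNT 0.122 and 0.0977.
The MXD genes and MNT together reached 1.30 times the MAX level in the knockdown experiment and 0.999 times in the MC2580 experiment. This sum was 1.07 and 0.854 times MAX with the longest transcript and 0.879 and 0.741 times with the MANE Select transcript, so that in the knockdown experiment it lay above or below MAX depending on the length. Of the summed RNA of the 8 MAX partners in the network, MYC made up 75.9% in the knockdown experiment and 83.2% in the MC2580 experiment. With MGA, a large repressor that also pairs with MAX, counted in, the percentages were 73.1% and 81.1%. These are ratios of RNA and say nothing of protein or of dimers.
The length chosen for a gene moves these ratios. With the MANE Select transcript, MYC was 2.18 and 2.62 times MAX, since the MAX exons add up to 6257 bases and its MANE Select transcript has 2010. MXD1 was then 0.0964 and 0.0478 of the MAX level. MYC remained above MAX, and every other member below it, with each of the 4 lengths tried.

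**Figure D2:**
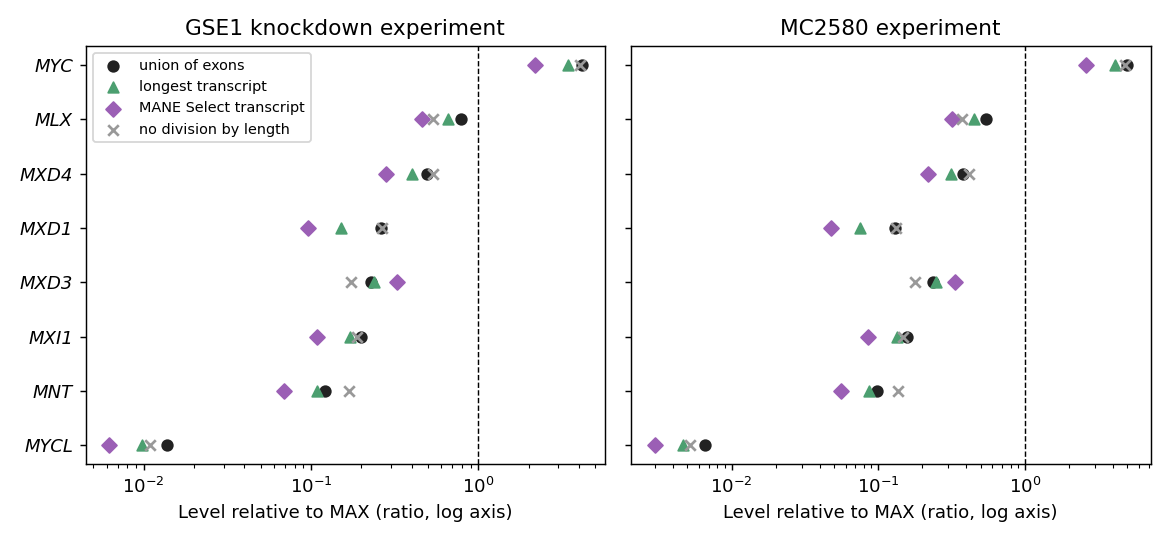
Level of 8 members relative to MAX (log axis) in the knockdown experiment (left) and the MC2580 experiment (right); the dashed line marks equality with MAX and MYCN is left out as too low. Symbols stand for the length used. MYC lies to the right of the line and the other members to its left with every length, while MXD3 and MXD4 change order when MANE Select transcripts are used.

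Several members share exon sequence with a neighboring gene. MXD3 exons overlap those of RAB24 on the same strand over 19.5% of their length and those of PRELID1 on the opposite strand over 24.2%. PRELID1 had a base mean of 9505 in the knockdown experiment and 12502 in the MC2580 experiment, and RAB24 had 2235 and 3083. Both lay above MXD3 and, like it, were higher in the MC2580 experiment. MLX overlaps PSMC3IP on the opposite strand over 18.2% of its exons, and MAX overlaps FNTB on the opposite strand over 13.1%. The overlap of MYC was limited to the long noncoding RNA CASC11, over 3.18% of its exons, with base means of 3.95 and 4.89. MXD1 overlaps SNRNP27, a splicing factor gene with base means of 1553 and 1240, on the same strand over 3.73% of its exons. The library kit does not mark strand, so the counts of MXD3, MLX and MAX, and to a smaller extent that of MXD1, are less certain than that of MYC.

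The experiments were then set side by side by the share of a gene in the summed base means of its table. The tables were normalized separately, and transduction, time, drug and pooled groups all differ between them and cannot be told apart, so these values are a description without a test. The share of MYC was 558 ppm in the knockdown experiment and 859 in the MC2580 experiment, or 1.54 times higher in the latter. MAX had 138 and 177 ppm, 1.28 times higher in the MC2580 experiment, and MXD3 had 23.8 and 31.5, 1.32 times higher there.
MXD1 went the other way. Its share was 36.8 ppm in the knockdown experiment and 23.4 in the MC2580 experiment, 1.58 times higher in the former. MYCL, from a much lower level, was 1.63 times higher in the knockdown experiment, at 1.51 against 0.925 ppm. MLX was 1.13 times higher there. MXD4, MXI1 and MNT had ratios of 1.01, 0.997 and 0.975, knockdown over MC2580 experiment. By length-scaled level, MYC RNA was 15.8 times that of MXD1 in the knockdown experiment and 38.2 times in the MC2580 experiment. This 2.43-fold difference does not depend on the scaling of the tables or on the length chosen. With MANE Select transcripts the values were 22.6 and 54.8 times. Among the members compared, MYC had the lowest ratio of shares and MXD1 the highest after MYCL, so this pair gives a large difference by its choice. For MYC over the other members, the difference ran from 1.17-fold with MXD3 to 1.74-fold with MLX, and was 2.51-fold with MYCL. It was not set against other pairs of genes, and a shift of the network was not tested.
Among the 9 members whose base mean was 10 or more in both tables, 0 differed more than 2-fold, against 6.15% of the 12354 protein-coding genes so compared (4.89% higher and 1.26% lower in the knockdown experiment). At 1.5-fold, 3 of the 9 differed: MYC was lower and MXD1 and MYCL were higher in the knockdown experiment. The background at 1.5-fold was 22.1%, with 15.1% higher and 6.94% lower. The place of MYC beyond this limit depended on the unit. By length-scaled level, in which every ratio of knockdown over MC2580 experiment is 1.09 times larger, MYC was 1.41 times higher in the MC2580 experiment and inside the limit, whereas MXD1 was 1.72 and MYCL 1.78 times higher in the knockdown experiment. The background was then 25.3% of 12335 genes with a length, 21.4% higher and 3.97% lower. MXI1 and MNT, slightly lower in the knockdown experiment by share, were slightly higher there on that scale. The log2 ratio of MYC was -0.62, and 5.88% of the genes lay below it. The log2 ratios of MXD1 and MYCL were 0.66 and 0.71, with 87.5% and 89.3% of the genes below them. The median log2 ratio was 0.00 for the members and 0.09 for all genes compared. At any size, 57.9% of the genes compared had a larger share in the knockdown experiment and 42.1% a smaller one. By length-scaled level these were 68.1% and 31.9%.

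**Figure D3:**
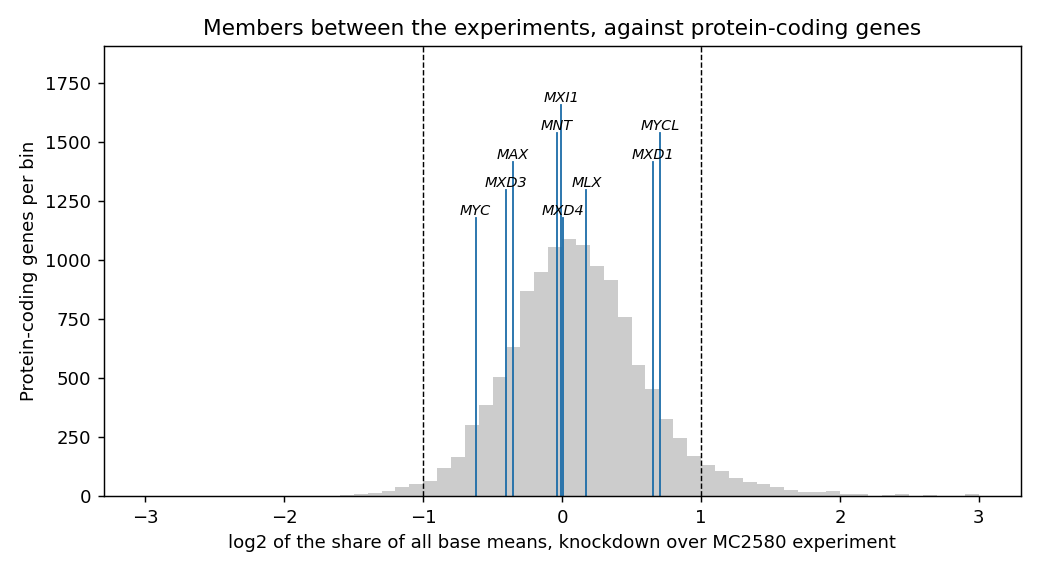
Distribution of the log2 ratio of shares, knockdown over MC2580 experiment, over 12354 protein-coding genes (grey bars, genes per bin, values beyond 3 drawn at the edge), with the 9 members as vertical lines of arbitrary height. Dashed lines mark 2-fold; every member lies between them, with MYC at -0.62 toward the left and MXD1 and MYCL at 0.66 and 0.71 toward the right.

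The other branches of the network were partly present. MGA had a length-scaled level of 17.0 ppm in the knockdown experiment and 15.1 in the MC2580 experiment. MLXIP (MondoA), which senses glucose-derived metabolites, had 19.2 and 21.2 ppm, or 0.295 and 0.399 of the MLX level. MLXIPL (ChREBP), its counterpart in liver, had base means of 0.891 and 2.31 only. In share, MGA was 1.04 times higher in the knockdown experiment and MLXIP 1.20 times higher in the MC2580 experiment.
All 5 corepressor subunits compared here that are used by the MXD proteins and MNT were well above a base mean of 10. The histone deacetylase HDAC1 was the highest, at 248 and 188 ppm, followed in the knockdown experiment by SIN3A, the scaffold of the MXD complexes, at 66.7 ppm against 43.4 in the MC2580 experiment. The lowest were SIN3B, at 27.2 and 22.7 ppm, and the corepressor NCOR1, at 53.1 and 30.8. Each of the 5 had a larger share in the knockdown experiment, by a median of 1.21 times, and none by more than 2-fold. Over all genes compared, 57.9% were higher there and the median was 1.06 times.
Of 11 coactivators and cofactors of MYC, 4 stood above MAX in each experiment. The highest were RUVBL2, an ATPase of chromatin remodeling complexes, at 287 and 374 ppm, and WDR5, a subunit of histone methyltransferase complexes, at 140 and 158. The lowest in the knockdown experiment were ZBTB17 (MIZ1), through which MYC represses genes, at 32.1 ppm, and the acetyltransferase CREBBP, at 37.5. In share, 5 of the 11 were higher and 6 lower in the knockdown experiment, with none past 2-fold. Their median ratio, knockdown over MC2580 experiment, was 0.974, beside 57.9% higher and a median of 1.06 over all genes.
Regulators of MYC protein stability were mostly lower. Among 8, the kinase AURKA was the highest, at 189 ppm in the knockdown experiment and 125 in the MC2580 experiment, followed by the ubiquitin ligase HUWE1, at 91.9 and 60.5. FBXW7, the ubiquitin ligase subunit that marks MYC for destruction, was the lowest, at 8.98 and 5.78 ppm, and the kinase GSK3B had 11.3 and 6.22. In share, each of the 8 was higher in the knockdown experiment, with a median of 1.39 times over the list, beside 57.9% and 1.06 times over all genes.
The 18 well-known MYC target genes were the most abundant list, with a median of 241 ppm in the knockdown experiment and 302 in the MC2580 experiment. In the former 7 of them exceeded MYC itself and in the latter 6. NCL (nucleolin) had 1214 and 1063 ppm and NME2, a nucleoside diphosphate kinase, 838 and 1194, while the translation factor EIF4E had 24.7 and 24.8 and the transcription factor TFAP4 24.1 and 36.1. In share, 14 of the 18 were lower and 4 higher in the knockdown experiment, with a median of 1.15 times higher in the MC2580 experiment. Of all genes compared, 42.1% were lower. By length-scaled level 12 of the 18 were lower, beside 31.9% of all genes. TERT, the telomerase subunit, was the only one past 2-fold, at 2.26 times higher in the MC2580 experiment, and was named here after its value was seen. The lists were compared by counts and medians alone.

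Most of 10 genes listed as promyelocyte markers expected in NB4 cells were present. Of the 10, which include PML and RARA, 9 reached a base mean of 10 in both experiments. MPO (myeloperoxidase) had 10531 and 15499 ppm, whereas the elastase gene ELANE had base means of 1.10 and 3.87 only. Their median share was 1.60 times higher in the MC2580 experiment over the 9 markers, with 7 higher there and 2, CD33 and PML, 1.07 and 1.04 times higher in the knockdown experiment. AZU1 and CEBPE were past 2-fold, at 2.47 and 2.17 times higher in the MC2580 experiment, beside 1.26% of all genes compared. Of all genes compared, 42.1% had a larger share in the MC2580 experiment, and the median was 1.06 times higher in the knockdown experiment. CD33, PML, AZU1 and CEBPE were named after their values were seen. Of the markers of other cell types, HBA1 and PF4 were at 0 in both tables, MS4A1 was at 0.217 and 0, CD3E at 1.55 and 2.98, and COL1A2 at 0.0734 and 0.750 in base mean. Other markers in these lists were clearly present. In base mean, ITGA2B had 660 and 549, CD79A 121 and 116, EPCAM 432 and 403, and KRT18 906 and 668. The summed length-scaled level, knockdown before MC2580 experiment, was 125 and 56.4 ppm for 3 T cell markers, nearly all from CD4, which monocytes also make. It was 9.25 and 8.15 for 3 B cell markers, 0.825 and 0 for 2 erythroid, 10.7 and 8.01 for 2 megakaryocyte, 43.5 and 31.9 for 2 epithelial, 24.4 and 7.43 for 2 endothelial and 0.148 and 0.119 for 2 fibroblast markers. PECAM1, which myeloid cells also express, was 3.02 times higher in share in the knockdown experiment and CD4 2.07 times. The part of these shifts in the values of MYC and MXD1 was not tested. In bulk RNA, a change in the kind of cells present and a change in RNA per cell cannot be told apart.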

How the data were processed

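mRNA-seq libraries were prepared by the authors with the TruSeq RNA v2 kit from total RNA of NB4 cells. According to the methods and the submitters' processing notes, reads were mapped to hg38 with STAR (2.7), genes were quantified with RSEM, and DESeq2 was run per experiment; the annotation release is not given in the sources used here. As deposited, each signal value is a base mean, identical in both hairpin blocks of the knockdown table for every gene. The tables otherwise hold 10 and 5 columns of the authors' own fold changes, standard errors, statistics, p-values and adjusted p-values, which were not used. No values per library were used, so the count-based tests of each hairpin against EV and of MC2580 against DMSO, written for that case, could not be made, and every result is a description without error or p-value.

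Gene lengths came from GENCODE release 44 (GRCh38), in which 60261 of 60603 identifiers matched by stable ID; genes without a match held 0.117% and 0.103% of the summed base means and were left out of length scaling. Ranks used protein-coding genes whose base mean was 10 or more. A ratio over 2-fold between the shares of the tables was counted. Alternatives were the longest transcript, no length, protein-coding scaling, a median ratio scaling, a 1.5-fold limit and a base mean of at least 50; MANE Select lengths, and length-scaled levels in place of shares between the tables, were added after the data were seen. The named genes were the 10 members and the lists of related genes and markers, each list by counts, with up to 4 examples taken from its highest and lowest levels, and genes outside this are said to be so; 3 genes of these lists are not reported here. The members and lists were chosen with earlier results of these data known. The ratio step was tested on simulated data, with planted changes larger than that of any member and counting noise only. That test therefore does not show how certain the smaller ratios of the members are. Python 3.11.15, pandas 2.3.3 and numpy 2.4.6 were used.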

Additional observations from a re-analysis of the deposited data

How the results depend on the processing

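The order MYC, then MAX, and the position of every other member below MAX held under all lengths tried (union of exons, longest transcript, MANE Select transcript and none). The order of MLX, MXD4, MXD3, MXI1, MXD1 and MNT did not, nor the position of the summed MXD genes and MNT relative to MAX. Without division by length, the level of MYC was 558 ppm in the knockdown experiment and 859 in the MC2580 experiment, a change that follows from the unit itself. With MANE Select lengths, the ratio of MYC to MAX was 2.18 and 2.62. Across the lengths, the share of MYC among the MAX partners ran from 71.1% to 76.0% in the knockdown experiment. In the MC2580 experiment it ran from 77.9% to 83.2%. The lowest values came with MANE Select lengths, and percentages this high could not rise by 1.5 times. A 1.5-fold limit raised the count between the experiments to 2726 protein-coding genes, or 22.1%, and 3 of 9 members. With length-scaled levels in place of shares, it was 3124 genes, or 25.3%, and 2 of the 9. MYC was then no longer among them. A base mean of at least 50 leaves fewer genes, and MYCL, at 38.1 in the MC2580 experiment, drops out. The count of genes past 2-fold was then 458, and that of members stayed at 0. The number of genes compared at this setting is not given here, so this 0 cannot be set against a share over all genes. The median ratio scaling lowers every log2 ratio by the same 0.06, too little to move any member by 1.5 times. Under it MXD4 alone changed sign, from 0.008 to -0.050. No paired analysis was possible because the tables give means over libraries, and for the same reason no replicate was left out and no count-based test was run. Errors of the levels and the depth behind them are therefore unknown.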
